A study of Mus musculus with 6 samples.

Results

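Transcript levels of 8 transcription factors of the cranial mesenchyme and the skull sutures were compared between Cdc73 knockout and wildtype osteoblasts. The set comprised the basic helix-loop-helix factors Twist1 and Twist2, their dimer partner Tcf12, the paired-type homeodomain factors Prrx1, Prrx2, Alx1 and Alx4, and the homeodomain factor Six2. The members were listed by symbol under a rule that used no measured value, though with earlier results of these data known, and all 8 of 8 were found among the 27179 gene IDs of the count table, each as 1 row. The cells came from the calvaria of C57Bl/6J pups aged 5 days and were sorted for a GFP transgene controlled by Osteocalcin-Cre, a recombinase expressed in osteoblasts. In 3 libraries the labels give the genotype as Cdc73/Hrpt2 KO, with Flox in the sample titles, and in 3 libraries as Wildtype. The labels do not say whether each library is a separate animal or a pool, so p-values measure the spread between these libraries, which may be technical. Cells of both genotypes were sorted in the same way, and which further alleles the wildtype pups carried is not stated. Cre driven by Osteocalcin acts in maturing osteoblasts rather than in all suture cells.

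Twist1 binds DNA as a dimer with itself or with E proteins such as Tcf12, and in calvarial cells it is known for holding back the osteoblast factor Runx2. Loss of 1 copy of either TWIST1 or TCF12 in humans is a known cause of premature suture fusion. Prrx1 and Prrx2 mark skeletal mesenchyme and its progenitors, Alx1 and Alx4 pattern the frontonasal region and the skull vault, and Six2 is expressed in craniofacial mesenchyme as well as in kidney progenitors.

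Promoter sequences (RefSeq, build GRCm38.p6, the 250 bases before the start of an annotated transcript) were found for 6 of the 8 genes, and Alx1 and Alx4 had no entry. That start need not be the outermost one: the windows of Prrx1, Prrx2 and Tcf12 lie wholly or partly inside the span of the gene given below. They were searched on both strands for the E-box CANNTG and its form CATCTG, which helix-loop-helix dimers such as Twist1 with Tcf12 bind, for the homeodomain word TAATTA, and for TAATNNNATTA, a palindrome bound by pairs of paired-type homeodomains. CATCTG is contained in CANNTG. The promoters of Twist1 (chr12:33957421-33957670, plus strand) and Six2 (chr17:85688275-85688504, minus strand) are shown because these are 2 of the 3 factors whose groups did not overlap below. For Six2 the 20 bases next to the start site, which GENCODE counts as exon, are left out. Each is written 5′ to 3′ along the gene, and capitals mark the words found:
Twist1: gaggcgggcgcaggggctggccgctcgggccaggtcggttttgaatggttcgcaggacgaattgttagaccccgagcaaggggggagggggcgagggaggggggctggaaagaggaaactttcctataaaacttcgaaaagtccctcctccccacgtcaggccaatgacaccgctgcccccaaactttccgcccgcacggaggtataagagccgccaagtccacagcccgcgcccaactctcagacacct
Six2: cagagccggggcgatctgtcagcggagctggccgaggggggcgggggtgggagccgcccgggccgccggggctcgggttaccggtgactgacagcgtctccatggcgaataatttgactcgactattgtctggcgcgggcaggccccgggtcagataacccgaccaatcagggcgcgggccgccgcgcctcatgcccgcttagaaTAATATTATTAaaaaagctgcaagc
The Six2 window holds the palindrome as TAATATTATTA, at bases -45 to -35 from the start site, a word pattern present in 0.463% of all 32851 promoter windows of this length. The window of Prrx1 (chr1:163313651-163313900, minus strand) holds TAATTA at bases -173 to -168 from its start, as 4.84% of windows do. None of the windows of Twist1, Six2 and Prrx1 holds a CANNTG, which 66.2% of windows do, and CATCTG stands in 14.4%. Among the other entries, the E-box was found in 2 of the 3 Tcf12 windows, as CAGCTG and CAAGTG, and in neither Twist2 nor Prrx2. These are matches of letters in a short window and describe no binding.

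Library totals ran from 13591925 to 20993962 counts. Wildtype 2 and 3 had counts for 14608 and 15712 gene IDs, against 17068 to 18024 in the other 4 libraries, wildtype 1 being among these 4 with 17947, so results are also given without single controls. The most abundant ID without a name took 16.66% to 20.68% of the counts in knockout and 9.67% to 11.23% in wildtype libraries, a gap that enters values scaled by library totals alone. The targeted gene could not check the labels, since the groups overlapped in Cdc73 (gene ID 214498). It had a level of 20.5, 12.8 and 21.73 CPM in wildtype 1, 2 and 3 and of 13.98, 14.73 and 14.4 CPM in knockout 1, 2 and 3. Its log2 fold change was -0.36 ± 0.22 (standard error). CPM denotes counts scaled to a library total common to all samples, here after TMM scaling. Summed over 11 osteoblast markers, the level was 247600 to 365700 CPM in knockout and 291700 to 323400 CPM in wildtype libraries, with no marker at 0. The sum of 13 chondrocyte markers was 12470 to 27170 CPM in knockout and 3562 to 10260 CPM in wildtype libraries. Of the 13, 10 lay higher in every knockout library, as 10.6% of all genes tested did. Sums of 12 endothelial markers were 142.2 to 249.8 against 54.57 to 145.4 CPM, of 12 macrophage markers 167.1 to 392.3 against 98.88 to 142.6 CPM, and of 8 neutrophil markers 54.95 to 184.7 against 19.96 to 54.1 CPM. Sums of 12 markers of fibroblasts and periosteal mesenchyme overlapped, at 12490 to 16200 against 11760 to 21490 CPM, as did those of 11 skeletal muscle markers, at 7.98 to 37.92 against 6.329 to 53.9 CPM. Single markers also lay higher in every knockout library for 4 of 12 endothelial, 6 of 12 macrophage and 4 of 8 neutrophil markers. The same held for 1 of 11 osteoblast, 0 of 12 fibroblast and 0 of 11 muscle markers. The fibroblast marker Thy1 lay lower in every one, as 9.81% of all genes did. Markers at 0 in some library were Elane of the neutrophil list and Myh3, Actn2, Tnni2, Ckm and Ttn of the muscle list. The part of these other cells in the values below was not tested.

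Twist1 was the most abundant of the 8 factors per kilobase of exon, and Twist2 and Alx1 were the least abundant. For levels between genes, CPM was divided by the length of the union of a gene's exons in GENCODE M21. On this scale Twist1 stood at 106.3 ± 10.34 CPM per kb in wildtype libraries (SD, n = 3). Prrx2 followed at 22.77 ± 4.23, Prrx1 at 15.73 ± 2.456, Six2 at 10.91 ± 3.757, Alx4 at 9.009 ± 0.9525 and Tcf12 at 6.597 ± 0.2626 CPM per kb. Alx1 and Twist2 stood at 0.6052 ± 0.3951 and 0.5889 ± 0.1358 CPM per kb. The lowest Twist1 library (96.6 CPM per kb) lay above the highest library of any other factor (25.54 CPM per kb, Prrx2). The neighbours Prrx2 and Prrx1, Prrx1 and Six2, Six2 and Alx4, Alx4 and Tcf12, and Alx1 and Twist2 overlapped in their ranges over the 6 libraries. The order of the 8 was the same in the knockout libraries. It depends on the length used: with the longest coding transcript, Tcf12 came to 16.26 ± 0.6475 CPM per kb in wildtype and stood above Six2, and Prrx1 stood above Prrx2 in the knockout libraries (28.71 ± 3.315 against 25.1 ± 1.914 CPM per kb).

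None of the 8 factors passed the test for a difference between genotypes, and 3 had groups that did not overlap. All 8 passed the filter on low counts and were tested with the other 13497 genes by edgeR's quasi-likelihood test, in which 0 of 13505 genes (0%) had an adjusted p under 0.05. Fold changes had positive values for 5 factors and negative values for 3, with a median log2 fold change of 0.18, beside -0.006 over all genes tested. Without knockout 1 that median was 0.074, without knockout 2 it was 0.09, without wildtype 2 0.075 and without wildtype 3 0.11. Twist1 and Six2 lay higher in all 3 knockout libraries than in all 3 wildtype libraries, 2 of 8 members where 10.6% of all genes did so. Alx4 lay lower in every knockout library, 1 of 8 where 9.81% of all genes did so. At an unadjusted p under 0.05 there were 1 member higher (Twist1) and 1 lower (Alx4), beside 8.26% and 6.35% of all genes. The 8 also had 0 calls in each other fit that called any gene, namely edgeR without the filter (0.121% of genes called), DESeq2 (1.84%), edgeR with the replicate number as a block (1.75%) and edgeR without wildtype 1 (2.96%). With so few members these shares do not set the 8 apart from the background. In sorted bulk cells, fewer cells of a type and less RNA per cell cannot be told apart.

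**Figure D1:**
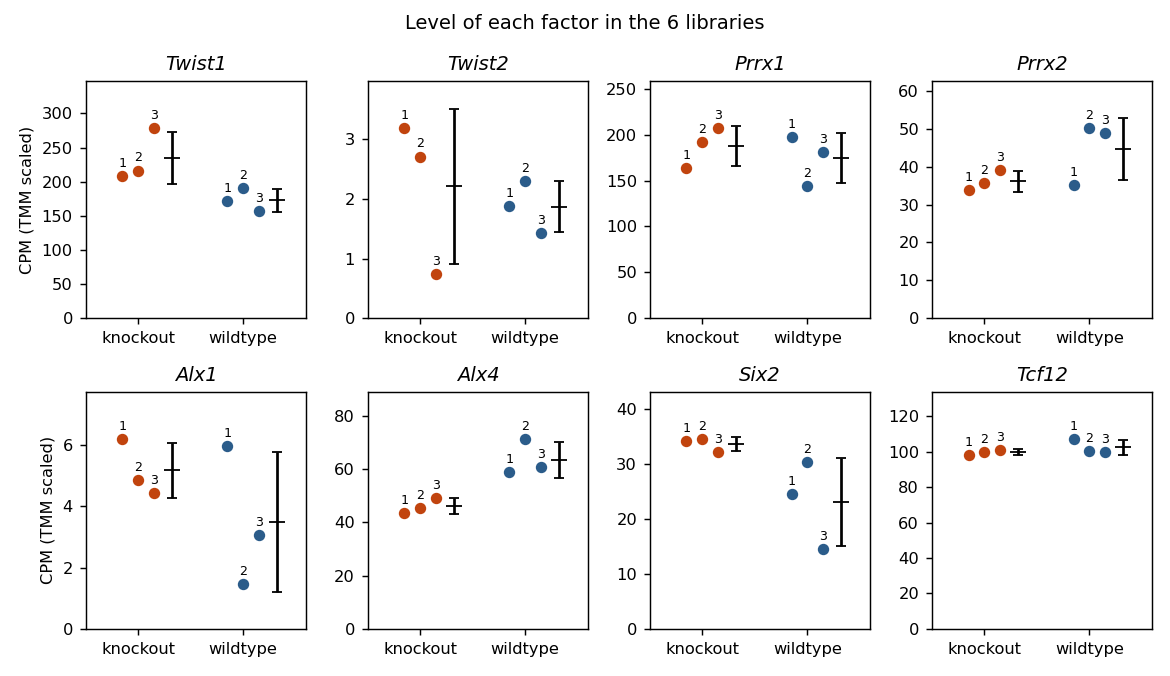
CPM after TMM scaling (y axis, linear from 0, one scale per panel) of each factor in the 3 knockout (red) and 3 wildtype (blue) libraries, numbered by replicate, with the mean and SD of each group in black. Twist1 and Six2 sit higher and Alx4 lower in all knockout libraries, while the groups of the other 5 factors overlap.

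Among the helix-loop-helix factors, Twist1 (gene ID 22160, chromosome 12, 33957671 to 33959831, plus strand) measured 208.3, 216.3 and 277.9 CPM in knockout 1, 2 and 3. It measured 171.2, 190.8 and 157.3 CPM in wildtype 1, 2 and 3. The groups did not overlap, knockout 3 being the highest library and wildtype 2 the nearest control. Knockout libraries averaged 234.2 ± 38.09 CPM and wildtype libraries 173.1 ± 16.83 CPM (SD, n = 3 in both), and the log2 fold change was 0.44 ± 0.18 (standard error). In the edgeR quasi-likelihood test its unadjusted p was 0.0345 and its Benjamini-Hochberg adjusted p = 0.322, above the threshold of 0.05. The log2 fold change was 0.28 without knockout 3 and 0.22 when libraries were scaled by their totals alone, and the groups did not overlap on that scale either.

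Twist2 (gene ID 13345, chromosome 1, 91801461 to 91848034, plus strand), the close relative of Twist1, was scarce, with 9 to 53 counts per library. It measured 3.18, 2.71 and 0.7404 CPM in knockout and 1.88, 2.295 and 1.433 CPM in wildtype libraries. Knockout 1 was the highest library and knockout 3 the lowest, so the groups overlapped fully. The log2 fold change was 0.26 ± 0.53, and -0.11 without knockout 1, so no difference was detectable at this depth.

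Tcf12 (gene ID 21406, chromosome 9, 71844252 to 72111893, minus strand), the E protein that pairs with Twist1, had the smallest fold change of the set. It measured 98.15, 99.93 and 101.2 CPM in knockout and 107.1, 100.3 and 99.89 CPM in wildtype libraries. All 6 values lay close together, with wildtype 1 slightly above the rest. Knockout libraries averaged 99.76 ± 1.525 CPM and wildtype libraries 102.4 ± 4.078 CPM (SD, n = 3 in both), and the log2 fold change was -0.04 ± 0.14. Scaling by library totals alone gave -0.24, on a scale that put the median of all genes at -0.21. On that scale the groups did not overlap, at 99.87, 96.92 and 82.23 CPM in knockout and 116.7, 106.1 and 107.4 CPM in wildtype libraries.

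The ratio of Twist1 to Tcf12 counts within a library does not depend on how libraries are scaled. It was 2.122, 2.164 and 2.746 in knockout and 1.598, 1.902 and 1.574 in wildtype libraries. Every knockout library held more Twist1 counts per Tcf12 count than any wildtype library, with means of 2.344 ± 0.3489 and 1.692 ± 0.1828 (SD, n = 3 each). An exact two-sided permutation test gave p = 0.1, the smallest that 3 libraries against 3 allow, or 0.2 after Benjamini-Hochberg adjustment over the 4 ratios computed. The ratios were chosen after the levels were seen. With library totals alone Twist1 lay higher and Tcf12 lower in every knockout library, so this ratio had to separate the groups and its test adds no support.

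**Figure D2:**
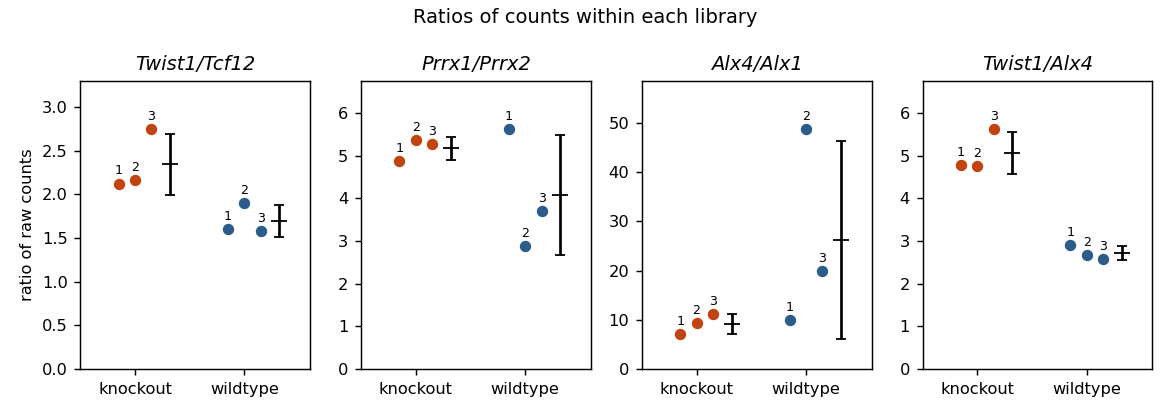
Ratios of raw counts of factor pairs within each library (y axis, linear from 0, one scale per panel), numbered by replicate, for knockout (red) and wildtype (blue), with mean and SD in black. Twist1/Tcf12 and Twist1/Alx4 are higher in all knockout libraries, and the other 2 ratios overlap between the groups.

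Among the homeodomain factors, Alx4 (gene ID 11695, chromosome 2, 93642434 to 93681341, plus strand), which takes part in forming the parietal bones, had the smallest p of the 8. It measured 43.44, 45.52 and 49.36 CPM in knockout and 58.8, 71.29 and 60.72 CPM in wildtype libraries. All knockout libraries lay below all wildtype libraries, with knockout 3 and wildtype 1 the nearest to each other. Knockout libraries averaged 46.11 ± 3.005 CPM and wildtype libraries 63.6 ± 6.724 CPM (SD, n = 3 in both), and the log2 fold change was -0.46 ± 0.15. In the edgeR test the unadjusted p was 0.012 and the adjusted p = 0.285, so the threshold was not passed. Over the 17 alternatives run, the log2 fold change of Alx4 stayed between -0.67 and -0.36, and its adjusted p between 0.0753 (edgeR without wildtype 1) and 0.947 (edgeR against wildtype 1 alone). Twist1 and Alx4 thus had fold changes of opposite sign. The Twist1 to Alx4 ratio of counts was 4.796, 4.751 and 5.63 in knockout and 2.912, 2.676 and 2.59 in wildtype libraries, again without overlap (exact two-sided permutation p = 0.1, adjusted 0.2). This pair was picked because its members had been seen to differ in opposite directions. Since each had separated the groups, the ratio had to separate them too, and the permutation test could only return its smallest p. It adds no support.

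Alx1 (gene ID 216285, chromosome 10, 103007847 to 103029549, minus strand), which acts in early frontonasal mesenchyme, had few reads, with 21 to 136 counts per library. It measured 6.18, 4.865 and 4.442 CPM in knockout and 5.945, 1.461 and 3.045 CPM in wildtype libraries. Wildtype 1 lay within the knockout range, and wildtype 2 and 3 lay below it. The log2 fold change was 0.55 ± 0.45, and the controls decided its size: it was 1.17 without wildtype 1, 0.18 without wildtype 2 and -0.21 against wildtype 1 alone. The ratio of Alx4 to Alx1 counts was 7.029, 9.357 and 11.11 in knockout and 9.89, 48.81 and 19.94 in wildtype libraries, and the groups overlapped (exact two-sided permutation p = 0.2, adjusted 0.267).

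Prrx1 (gene ID 18933, chromosome 1, 163245119 to 163315145, minus strand), a marker of limb and skull mesenchyme, measured 164.0, 191.5 and 206.7 CPM in knockout and 197.4, 144.2 and 180.7 CPM in wildtype libraries. The groups overlapped, with the lowest value in wildtype 2. The log2 fold change was 0.11 ± 0.18, and -0.03 without wildtype 2. With library totals alone it was -0.11, on a scale that put the median of all genes at -0.21. Over the 17 alternatives Prrx1 kept its sign in 14 and turned in 3.

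Its relative Prrx2 (gene ID 20204, chromosome 2, 30845064 to 30881251, plus strand) measured 33.72, 35.65 and 39.16 CPM in knockout and 35.1, 50.07 and 48.78 CPM in wildtype libraries. Wildtype 2 and 3 were the highest libraries, and wildtype 1 lay among the knockout libraries. The log2 fold change was -0.30 ± 0.18 with all libraries, -0.47 without wildtype 1 and 0.03 against wildtype 1 alone. With library totals alone, where the median of all genes was -0.21, it was -0.51 and the groups did not overlap. Prrx1 counts per Prrx2 count were 4.863, 5.37 and 5.277 in knockout and 5.623, 2.881 and 3.705 in wildtype libraries. Wildtype 1 held the highest ratio of all 6, and the difference of the means was not larger than the spread (exact two-sided permutation p = 0.4, adjusted 0.4).

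Six2 (gene ID 20472, chromosome 17, 85662736 to 85688254, minus strand) measured 34.14, 34.47 and 32.17 CPM in knockout and 24.44, 30.32 and 14.57 CPM in wildtype libraries. After TMM scaling, in which knockout 3 had the lowest factor (0.813), the 3 knockout libraries were nearly equal. The wildtype libraries spread widely, with wildtype 3 the lowest. Knockout libraries averaged 33.59 ± 1.245 CPM and wildtype libraries 23.11 ± 7.961 CPM (SD, n = 3 in both), and the log2 fold change was 0.54 ± 0.24. The edgeR test gave an unadjusted p of 0.0508 and an adjusted p = 0.344, again above the threshold. Without wildtype 3 the log2 fold change was 0.29, and with library totals alone it was 0.34 and the groups overlapped. On that scale Six2 measured 34.74, 33.43 and 26.14 CPM in knockout and 26.63, 32.08 and 15.67 CPM in wildtype libraries.

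**Figure D3:**
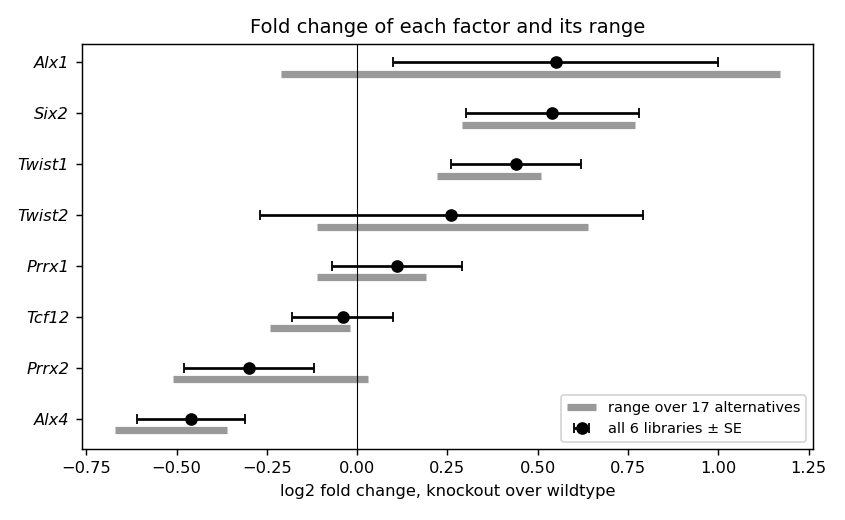
Log2 fold change of knockout over wildtype (x axis) for each factor, as a point with its standard error, and as a grey bar the range over 17 alternative settings. The bars of Twist1, Six2, Alx4 and Tcf12 stay on 1 side of 0, and those of Alx1, Twist2, Prrx1 and Prrx2 cross it.

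The partners and inhibitors of these helix-loop-helix factors showed no common direction. Id proteins lack a DNA-binding region and take up E proteins such as Tcf3, Tcf4 and Tcf12. Of 6 genes (Tcf3, Tcf4 and Id1 to Id4) 0 passed the test, 4 had positive and 2 negative fold changes, and the median log2 fold change was 0.15. Here and in the lists that follow, values after the CPM are log2 fold changes ± standard error, and the adjusted p of the 4 genes of smallest p in each list ran from 0.273 to 0.529 in edgeR. Id4 measured 12.07 ± 2.311 against 8.019 ± 2.565 CPM (log2 fold change 0.58 ± 0.27) and Id1 56.21 ± 4.682 against 45.16 ± 12.25 CPM (0.32 ± 0.21), both with overlapping groups. Id2 lay slightly higher in every knockout library (116.3 ± 6.522 against 102.6 ± 4.469 CPM, 0.18 ± 0.14). The E protein Tcf3 lay lower in every one, at 68.26 ± 0.7091 against 85.4 ± 21.13 CPM (-0.32 ± 0.19).

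Of 25 other transcription factors of cranial mesenchyme and sutures, 22 could be tested and 0 passed. Tfap2a, Shox2 and Hand2 fell under the filter, and Hand2 had no count in any library. Fold changes had positive values for 16 and negative values for 6, with a median of 0.27. At an unadjusted p under 0.05 there were 3 of 22 higher and 1 lower, beside 8.26% and 6.35% of all genes. With library totals alone 0 were higher and 2 lower, beside 3.52% and 18.4% of all genes. Snai1, a repressor of epithelial genes that is often studied together with Twist1, lay higher in every knockout library (59.93 ± 4.599 against 37.27 ± 10.15 CPM, 0.68 ± 0.21). The forkhead factors Foxc1 (48.76 ± 5.719 against 32.61 ± 10.82 CPM, 0.58 ± 0.23) and Foxc2 (13.15 ± 4.7 against 6.522 ± 2.467 CPM, 1.01 ± 0.35), which act in the formation of the skull bones, had overlapping groups. Six5 lay lower in every knockout library, at 22.46 ± 0.6793 against 31.37 ± 4.946 CPM (-0.48 ± 0.17). The median of the 22 was 0.065 with library totals alone, where that of all genes was -0.21. It was 0.12 without knockout 2, 0.044 without wildtype 3 and -0.086 against wildtype 1 alone. Against wildtype 1 alone 0 were higher at an unadjusted p under 0.05 (3.45% of all genes). Without wildtype 1 there were 7 of 22 higher (31.8%, beside 14.9% of all genes). With all libraries the shares were 13.6% and 8.26%, so both rose. In that fit without wildtype 1, Foxc1 passed with adjustment over all genes, as 2.96% of genes did.

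Of 21 suture signalling genes 0 passed, with 13 positive and 8 negative fold changes and a median of 0.16. That median was 0.012 without wildtype 3, 0.05 without knockout 3 and 0.36 without wildtype 2. At an unadjusted p under 0.05 there were 7 higher and 0 lower, beside the 8.26% and 6.35% of all genes given above. Bmp2, a growth factor that drives bone formation, measured 50.86 ± 3.544 against 32.74 ± 6.795 CPM (0.63 ± 0.18), and the TGF-beta receptor Tgfbr2 107.4 ± 15.03 against 70.8 ± 11.6 CPM (0.60 ± 0.18). Epha4, an ephrin receptor studied with Twist1 at the coronal suture, measured 21.29 ± 4.558 against 12.6 ± 3.449 CPM (0.75 ± 0.25). Each of these 3 lay higher in every knockout library. Of the 21 genes 6 did so and 0 lay lower in every one, where 10.6% and 9.81% of all genes did. The Notch ligand Jag1 measured 42.42 ± 9.606 against 21.24 ± 10.92 CPM (0.99 ± 0.33), with overlap. Without wildtype 1 Jag1 passed the edgeR test with adjustment, as 1 of the 21 where 2.96% of all genes passed. Without knockout 2 or without wildtype 2 it did not reach an unadjusted p under 0.05 in edgeR. The count of genes higher was 4 without knockout 1 (4.05% of all genes were higher there) and 2 without knockout 2 (3.91%). It was 6 without knockout 3 (8.25%) or wildtype 1 (14.9%), and 5 without wildtype 2 (6.62%) or wildtype 3 (5.99%). With library totals alone the count was 1 (3.52% of all genes). Without wildtype 1 the genes counted were not all among the 7. Against wildtype 1 alone the median of the 21 was 0.12. Chondrocyte, macrophage and neutrophil marker sums were also higher in every knockout library, and the endothelial sum in all but knockout 3. The part of these cells was not tested.

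Of 7 osteoblast transcription factors 0 passed, 6 had negative fold changes and 1 a positive one, and the median was -0.36. Runx2, which Twist1 is known to restrain, measured 213.2, 166.6 and 129.3 CPM in wildtype and 117.7, 142.5 and 194.4 CPM in knockout libraries. Its groups overlapped (log2 fold change -0.16 ± 0.24). Dlx6 (6.22 ± 2.51 against 12.76 ± 1.82 CPM, -1.05 ± 0.29), Sp7 (146.5 ± 30.41 against 224.8 ± 18.23 CPM, -0.62 ± 0.19) and Dlx5 (25.73 ± 2.3 against 32.56 ± 2.902 CPM, -0.34 ± 0.16) lay lower in every knockout library, 3 of 7 where 9.81% of all genes did. Dlx3 overlapped (-0.41 ± 0.20). DESeq2 called 1 of the 7, Sp7, where it called 1.84% of all genes, and edgeR with the replicate block called 1, Dlx6, where it called 1.75%. Leaving out single libraries gave medians from -0.57 (without knockout 3) to -0.30 (without knockout 2). With library totals alone the median was -0.60, where that of all genes was -0.21.

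**Figure D4:**
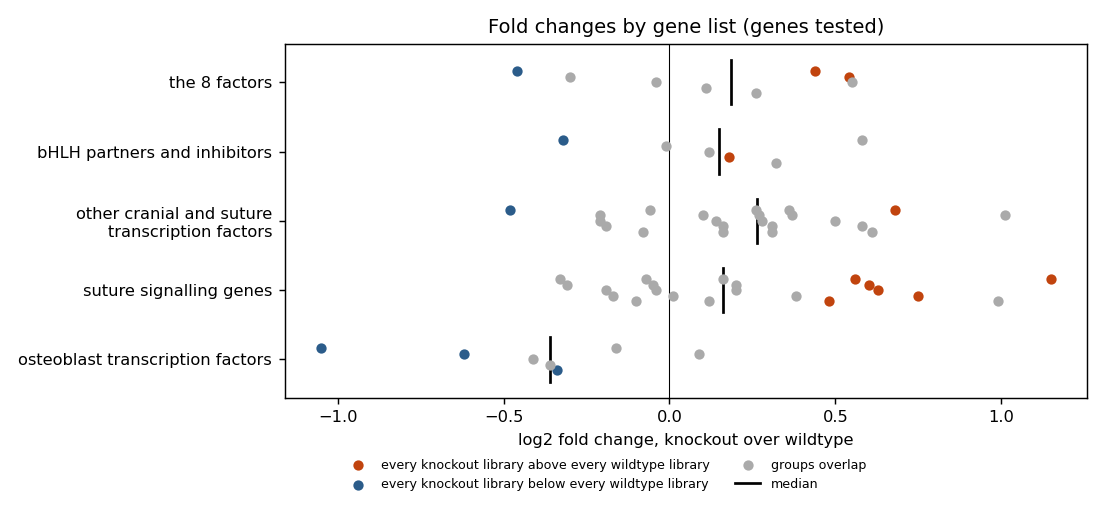
Log2 fold changes of knockout over wildtype (x axis) of the tested genes in each list (rows), red where all knockout libraries lie above and blue where all lie below the wildtype libraries, grey where the groups overlap, with the list median as a black line. Points are spread vertically only for legibility, and the medians run from -0.36 for osteoblast transcription factors to 0.27 for other cranial and suture transcription factors.

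Likeness to Twist1 and Prrx1 was measured as the root mean square difference between centred log2 CPM over the 6 libraries, among 9617 named genes averaging 5 CPM or more. Nearest to Twist1, whose own root mean square deviation was 0.263, were the MAP kinase phosphatase Dusp1 (0.085), the vesicle cargo protein Tmed5 (0.086) and the glycoprotein folding sensor Uggt2 (0.098). Dusp1 measured 166.1, 173.1 and 243.3 CPM in knockout 1, 2 and 3, with knockout 3 the highest library as for Twist1. Nearest to Prrx1, whose own deviation was 0.176, were the GTPase regulator Rabgap1 (0.031), the splicing factor Rbm25 (0.034) and the phospholipase Pnpla8 (0.041). With 6 libraries and 9617 genes, such near matches describe these libraries only.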

How the data were processed

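RNA was sequenced from 6 sorted cell samples, 3 per genotype. The deposited values are raw read counts per Entrez gene ID. Per the submitters' processing notes, CASAVA 1.7, Subread and featureCounts were used with build mm10; annotation and strand setting: not given in the sources used here. Columns were matched to samples by the description label, with 0 left over. Names came from RefSeq (25275 IDs, GRCm38.p6, which is the mm10 assembly) and GENCODE M21 (18 more), and 1886 unnamed IDs stayed in totals and tests. Reads shared by overlapping genes cannot be told apart.

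Genes were filtered with filterByExpr defaults, scaled by TMM (factors 0.813 to 1.091) and tested with edgeR 4.0.16 in R 4.3.3 by its quasi-likelihood test (two-sided, all libraries, no covariates), with Benjamini-Hochberg adjustment over 13505 genes and a threshold of 0.05. The biological coefficient of variation was 24.2%. Likeness used log2 CPM with a prior count of 2.

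The members and lists were chosen with earlier results of these data known. Named were all 8 factors, Cdc73, up to 4 genes of smallest p per pathway list, and the 3 genes nearest to Twist1 and to Prrx1. Runx2, outside this rule, was added after its values were seen. Some genes of 1 list are not reported here and stand in none of its counts. Alternatives were DESeq2 1.42.0, limma 3.58.1 (voom), other scalings and filters, a replicate block, removal of the most abundant unnamed ID and Lars2, and fewer libraries.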

Additional observations from a re-analysis of the deposited data

How the results depend on the processing

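None of the 8 factors passed the threshold under any of the 17 alternatives, and Twist1, Six2, Alx4 and Tcf12 kept the sign of their fold change in all of them. Signs turned for Prrx1 (-0.11 with library size alone, -0.08 against wildtype 1 alone, -0.03 without wildtype 2), Prrx2 (0.03) and Alx1 (-0.21), both against wildtype 1 alone, and Twist2 (-0.11 without knockout 1). Leaving out single libraries gave -0.11 to 0.64 for Twist2 and -0.03 to 0.19 for Prrx1. The cause was not tested.

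The count of genes past the threshold, 0 in edgeR, was 24 with no filter on low counts, 248 with DESeq2, 236 with the replicate block and 0 to 409 on leaving out single libraries, 409 being without wildtype 1. An unadjusted p under 0.05 was reached by 1974 genes, by 2962 with library size alone, 734 against wildtype 1 alone and 765 to 3974 on leaving out single libraries (937 without knockout 1, 765 without knockout 2, 3974 without wildtype 1). Higher against lower, the split was 1116 to 858, and 475 to 2487 with library size alone, which moved the median of all genes to -0.21. In that setting the medians of the 8 factors, the helix-loop-helix partners, the suture signalling genes, the osteoblast factors and the other cranial factors were -0.0012, -0.059, -0.054, -0.60 and 0.065. Against wildtype 1 alone the 8 factors had a median of -0.026 and the other cranial factors -0.086. Leaving out single libraries gave medians of 0.074 to 0.21 for the 8 factors, 0.055 to 0.20 for the partners, 0.044 to 0.40 for the other cranial factors, 0.012 to 0.36 for the signalling genes and -0.57 to -0.30 for the osteoblast factors.

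The main fit did not treat replicate numbers as pairs, and correlations among 3 libraries per group cannot settle whether they are. Deviations of same-numbered libraries correlated at 0.12, -0.07 and 0.22. Knockout 1 and 3 each correlated best with the wildtype library of the same number, while knockout 2 correlated best with wildtype 1 (0.35). With the replicate block the log2 fold changes were 0.43 for Twist1, 0.60 for Six2 and -0.46 for Alx4. Counts of 9 to 136 in Twist2 and Alx1 limit what could be detected there.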
